A study of Homo sapiens with 6 samples.

Results

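Polycomb group genes encode the subunits of the chromatin complexes PRC2 and PRC1. Expression of 9 of them, the PRC2 genes EZH1, EZH2, EED and SUZ12 and the PRC1 genes RNF2, RING1, BMI1, CBX2 and CBX8, was followed by RNA-seq after silencing of the lncRNA NEAT1 in BT-549 cells. The genes were chosen by their symbols as core subunits of these complexes, and all 9 were found among the 25545 genes of the expression table. BT-549 cells are a long-established line of triple-negative breast cancer (TNBC), grown here in RPMI1640 with serum and insulin. Cells were transfected for 48 h with a control siRNA (CsiRNA, 3 libraries) or an siRNA against NEAT1 (NEAT1siRNA, 3 libraries), from triplicate cultures of the same line. The sample titles carry the prefix tet for both groups, and the labels do not explain it. A single siRNA against NEAT1 is named in the labels.

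PRC2 places methyl groups on lysine 27 of histone H3 (H3K27) through its catalytic subunit EZH2 or EZH1, and needs EED and SUZ12 to be active. PRC1 attaches ubiquitin to histone H2A through RNF2 (also called RING1B) or RING1, which pair with a PCGF protein such as BMI1, and the CBX subunits bind the H3K27 methyl mark. Together they keep developmental genes and cell cycle inhibitor genes silent, and EZH2 and BMI1 are widely studied in breast cancer. EZH2 is known as a gene of proliferating cells, whereas EZH1 is also made in resting cells. NEAT1 forms the scaffold of paraspeckles, which are nuclear bodies.

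The deposited values are TPM, which are reads per gene divided by transcript length and scaled to the library total. A small set of short noncoding RNAs took up 64.4%, 65.6% and 67.7% of that total with CsiRNA. With NEAT1siRNA their share was 66.9%, 64.9% and 68.1%. The TPM of every other gene, the 9 members included, are lowered by this share and shift with it from library to library. A filter on TPM is stricter for the same reason. The 2 groups were compared with limma on log2(TPM + 1) over the 10721 genes that averaged at least 1 TPM, with Benjamini-Hochberg adjustment over all of them and a threshold of 0.05. All 9 members passed the filter on TPM. Folds on this scale understate the change of genes near 1 TPM. Reads per gene were recovered from the tables and came to between 15788793 and 20342000 per library. Silencing was seen in every library, since NEAT1 was at 13.4, 7.68 and 10.8 TPM with CsiRNA and at 4.36, 2.96 and 2.73 TPM with NEAT1siRNA. Mesenchymal markers of the line were high (VIM between 859 and 1112 TPM), whereas EPCAM, CD3E and CDH5, which mark epithelial, T and endothelial cells, were at or near 0. Of the other epithelial markers read, KRT18 was at 1.04 to 2.07 TPM. KRT8 reached 0.28 TPM, CDH1 reached 0.17 TPM and ESR1 was at 0. Libraries differed in how their values, taken as deviations of each gene from its group mean, followed the GC content of the transcripts. Spearman rho across 10424 genes ran from -0.73 (NEAT1siRNA replicate 2) to 0.68 (NEAT1siRNA replicate 1). Deviations within a group offset each other, so rho does not compare the groups. In bulk RNA, fewer cells that make a transcript and less of it per cell cannot be told apart.

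None of the 9 Polycomb group genes changed past the threshold after NEAT1 silencing. Of all genes tested, 14.0% (1498 of 10721) were past it, 4.99% higher and 8.98% lower. This excess of lower genes (963 against 535) was absent with quantile normalization (1109 lower, 1082 higher), centring on the median (954 lower, 1158 higher) and voom (1242 lower, 1225 higher). Whether the share of the short noncoding RNAs had a part in the excess was not tested. The lowest adjusted p among the members was 0.0724, for EZH1. At an unadjusted p under 0.05, 2 of the 9 were counted, EZH1 (lower) and CBX8 (higher), beside 27.4% of all genes tested. These 2 were also the members whose values did not overlap between the groups (22.2%, beside 30.3% of all genes tested). Log2 fold changes were positive for 5 members and negative for 4, with a median of 0.01 beside -0.04 over all genes tested. On log2(TPM + 1), the 95% intervals of the 9 members all lay within 0.46 of 0. With voom on the recovered reads they reached further, to 0.71 for CBX8 and -0.56 for EZH1.

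Calls on the members depended on the fit and on the libraries used. With libraries centred on their median, again none of the 9 was called (2112 of all 10721 genes tested). With voom on the recovered reads, 1 of the 9 was called, EZH1 (23.0% of all genes tested). With quantile normalization it was again 1 of the 9, EZH1 (20.4% of all genes tested). After the dependence of each library on GC content and length of the transcripts was removed, 1 of the 9 was called, CBX8 (33.3% of the 10424 genes with these data). Without NEAT1siRNA replicate 2, the single member called was EED (19.4% of all genes tested).

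**Figure D1:**
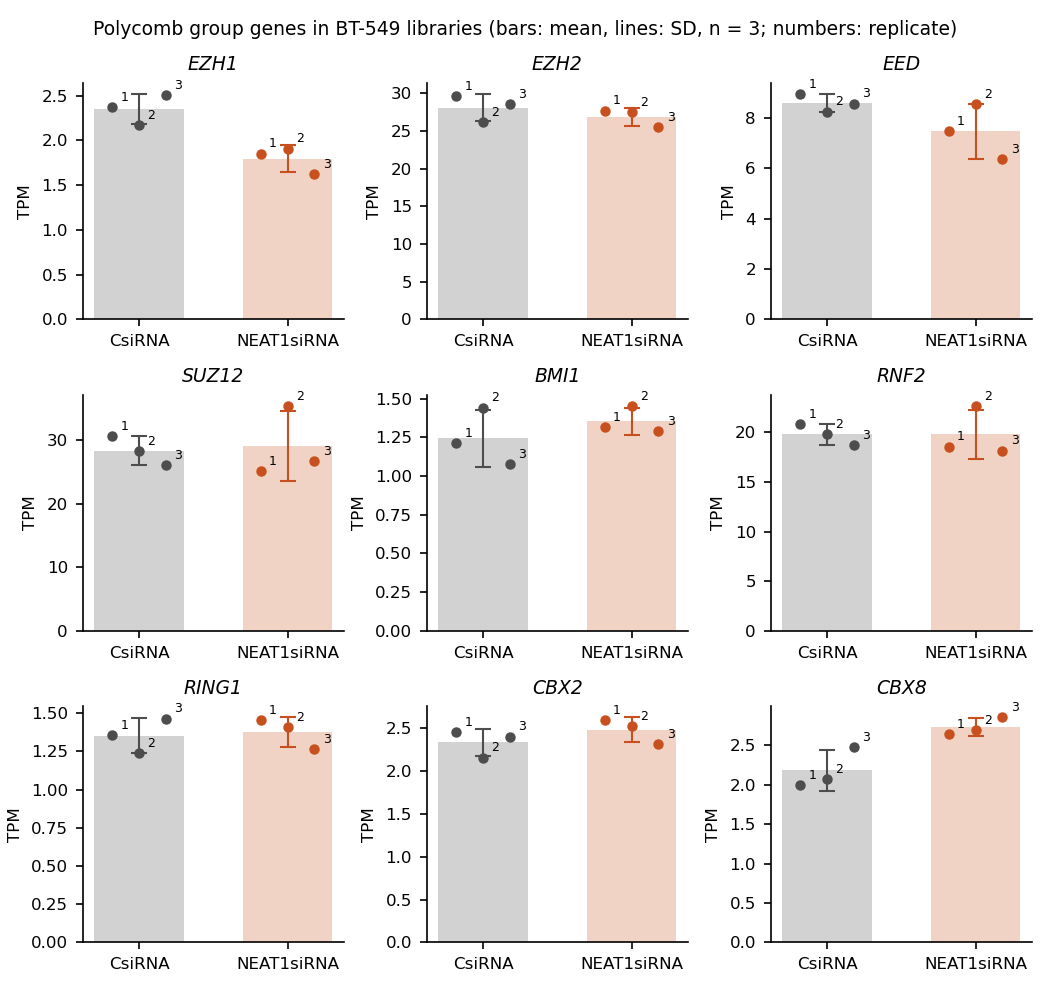
TPM of each of the 9 Polycomb group genes by group, where points are the single libraries with their replicate number, bars the mean and lines the SD (n = 3). EZH1 (lower with NEAT1siRNA) and CBX8 (higher) have groups that do not overlap, and SUZ12 and RNF2 are highest in NEAT1siRNA replicate 2.

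Levels of the members spanned more than 1 order of magnitude in CsiRNA cells. SUZ12 (28.3 ± 2.26 TPM, SD, n = 3) and EZH2 (28.1 ± 1.77 TPM) came first and their ranges overlapped. RNF2 followed at 19.8 ± 1.06 TPM and EED at 8.59 ± 0.344 TPM, each below the gene before it in every library. EZH1 (2.35 ± 0.165 TPM), CBX2 (2.34 ± 0.158 TPM) and CBX8 (2.18 ± 0.262 TPM) had overlapping ranges, and so did RING1 (1.35 ± 0.114 TPM) and BMI1 (1.24 ± 0.185 TPM), which came last. Thus the catalytic pair of PRC2 was unequal, with EZH2 far above EZH1, and the ring finger pair of PRC1 likewise, with RNF2 above RING1.

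The order depends on the length by which the authors divided the reads. That length can be read back from TPM and recovered reads, and for 7 members it lay within 0.93 and 1.13 times the canonical transcript of GENCODE v44. For RING1 it came to 10683 bases, which is 6.14 times the 1741 bases of its canonical transcript, and a ratio of at least 5 was found for 0.806% of genes (84 of 10424). By its canonical length RING1 would stand at 8.29 in CsiRNA cells, near EED rather than BMI1, on the scale of the TPM. For CBX8 the length was 1325 bases, 0.353 times the 3752 bases of the canonical transcript, and by canonical length it would stand at 0.770 with CsiRNA and 0.963 with NEAT1siRNA, under the filter of 1 TPM. The length is the same in all libraries, so it enters comparisons between the groups through the pseudocount and that filter.

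EZH1, a catalytic subunit of PRC2, lies on the minus strand at chr17:42700275-42745049 (GRCh38). It was at 2.37, 2.17 and 2.50 TPM with CsiRNA and at 1.85, 1.91 and 1.62 TPM with NEAT1siRNA. Every NEAT1siRNA library lay below every CsiRNA library, with a mean of 76.3% of the CsiRNA mean. The log2 fold change was -0.26 (SE 0.097, 95% interval -0.46 to -0.06), with an adjusted p of 0.0724 from limma. Recovered reads were 225, 209 and 293 with CsiRNA and 189, 206 and 155 with NEAT1siRNA. Voom on these reads gave -0.34 (95% interval -0.56 to -0.12, adjusted p = 0.0288), and removal of the GC and length trend gave -0.17 (adjusted p = 0.0666). The estimate was negative in all 15 alternatives run, between -0.37 and -0.17.

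EZH2, the other catalytic subunit, lies on the minus strand at chr7:148807257-148884321. It was at 29.6, 26.1 and 28.6 TPM with CsiRNA and at 27.7, 27.5 and 25.5 TPM with NEAT1siRNA. The groups overlapped, and the log2 fold change of -0.06 (SE 0.091, 95% interval -0.25 to 0.13) had an adjusted p of 0.717. EZH2 had between 1521 and 2088 recovered reads per library, and voom narrowed the interval to between -0.15 and 0.13.

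The ratio of EZH1 to EZH2 within a library does not depend on the scaling of that library. It was 0.0801, 0.0831 and 0.0876 with CsiRNA and 0.0668, 0.0694 and 0.0636 with NEAT1siRNA. All NEAT1siRNA ratios were lower, with a log2 difference of -0.33 between the group means. The exact two-sided permutation test gave p = 0.1, the smallest p that 3 libraries against 3 allow, and 0.4 after adjustment over the 4 ratios compared.

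EED, the subunit that binds the H3K27 methyl mark for PRC2, lies at chr11:86201212-86278813 on the plus strand. It was at 8.94, 8.26 and 8.57 TPM with CsiRNA and at 7.47, 8.56 and 6.38 TPM with NEAT1siRNA. The spread was wide with NEAT1siRNA, where replicate 2 lay inside the CsiRNA range and the others below it. The log2 fold change was -0.19 (SE 0.10, 95% interval -0.39 to 0.02, adjusted p = 0.233). Without NEAT1siRNA replicate 2 it was -0.28 (adjusted p = 0.0387), and without NEAT1siRNA replicate 3 it was -0.09 (adjusted p = 0.702), so that single libraries decided its value. With voom EED was at -0.15 (95% interval -0.34 to 0.03, adjusted p = 0.221). Removal of the GC and length trend also gave -0.15 (95% interval -0.29 to -0.0048, adjusted p = 0.102).

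SUZ12, the structural subunit on which PRC2 is built, lies at chr17:31937007-32001038 on the plus strand. It was at 30.6, 28.3 and 26.1 TPM with CsiRNA and at 25.1, 35.4 and 26.8 TPM with NEAT1siRNA. NEAT1siRNA replicate 2 was the highest of the 6 libraries and NEAT1siRNA replicate 1 the lowest. Limma gave a log2 fold change of 0.02 (95% interval -0.20 to 0.25, adjusted p = 0.921). Without NEAT1siRNA replicate 2 the estimate turned to -0.12 (adjusted p = 0.388). The table also holds SUZ12P1, a pseudogene of SUZ12, at 2.13 to 2.30 TPM, and how reads were shared between the copies is not stated.

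RNF2, the main ubiquitin ligase subunit of PRC1, lies at chr1:185045526-185102603 on the plus strand. It was at 20.8, 19.8 and 18.7 TPM with CsiRNA and at 18.6, 22.7 and 18.2 TPM with NEAT1siRNA. As for SUZ12, NEAT1siRNA replicate 2 was the highest library. Its log2 fold change was -0.0046 (95% interval -0.21 to 0.20, adjusted p = 0.985), and its sign changed in 6 of 16 alternatives.

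RING1, the paralog of RNF2, lies at chr6:33208500-33212722 on the plus strand. It was at 1.35, 1.24 and 1.46 TPM with CsiRNA and at 1.45, 1.41 and 1.27 TPM with NEAT1siRNA, and the groups overlapped. Its log2 fold change was 0.01 (95% interval -0.19 to 0.21, adjusted p = 0.947). The ratio of RING1 to RNF2 differed between the groups by 0.03 on the log2 scale (exact permutation p = 1).

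BMI1, the PCGF subunit that pairs with RNF2 in canonical PRC1 and a known repressor of CDKN2A, lies at chr10:22321099-22331484 on the plus strand. It was at 1.21, 1.44 and 1.08 TPM with CsiRNA and at 1.32, 1.45 and 1.29 TPM with NEAT1siRNA. The groups overlapped, at a depth of 82 to 112 recovered reads per library. The log2 fold change was 0.07 (95% interval -0.13 to 0.28, adjusted p = 0.694), and voom gave 0.19 (95% interval -0.11 to 0.50). The readthrough transcript COMMD3-BMI1, which overlaps BMI1, was listed at 0 in all 6 libraries. PCGF2 (also called MEL18), the closest relative of BMI1, stood higher, at 5.16 ± 0.180 TPM with CsiRNA and 5.35 ± 0.526 TPM with NEAT1siRNA. The ratio of BMI1 to PCGF2 differed by 0.08 on the log2 scale (exact permutation p = 0.6, adjusted p = 0.8).

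CBX2, a reader of the H3K27 methyl mark that also compacts chromatin, lies at chr17:79778148-79787983 on the plus strand. It was at 2.45, 2.16 and 2.40 TPM with CsiRNA and at 2.60, 2.53 and 2.32 TPM with NEAT1siRNA. The groups overlapped, with a log2 fold change of 0.06 (95% interval -0.14 to 0.26, adjusted p = 0.732).

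CBX8, another reader of that mark, lies at chr17:79792132-79801683 on the minus strand, 4148 bases beyond CBX2. It was at 1.99, 2.07 and 2.48 TPM with CsiRNA and at 2.64, 2.69 and 2.85 TPM with NEAT1siRNA. Every NEAT1siRNA library lay above every CsiRNA library, with a mean of 125% of the CsiRNA mean. The log2 fold change was 0.23 (SE 0.097, 95% interval 0.03 to 0.43), with an adjusted p of 0.116 from limma. Recovered reads were 54, 57 and 83 with CsiRNA and 77, 83 and 78 with NEAT1siRNA, the fewest of the 9 members. Voom gave 0.36 (95% interval 0.02 to 0.71, adjusted p = 0.124), and removal of the GC and length trend gave 0.30 (adjusted p = 0.0213). The ratio of CBX2 to CBX8 was lower with NEAT1siRNA by 0.24 on the log2 scale, but the groups overlapped (exact permutation p = 0.2, adjusted p = 0.4).

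**Figure D2:**
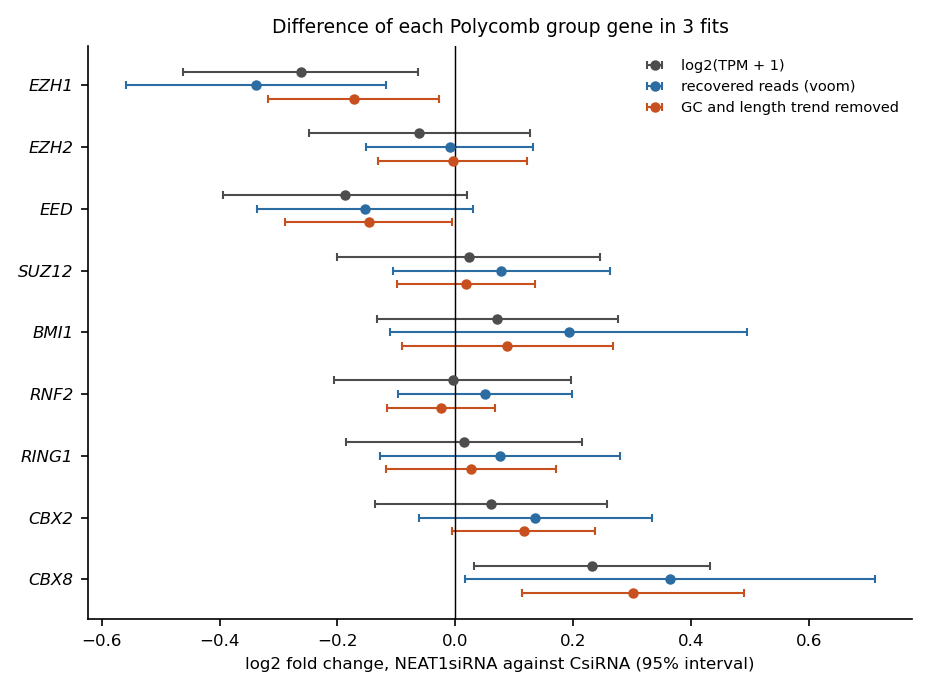
Log2 fold change of NEAT1siRNA against CsiRNA (x axis) with its 95% interval for each of the 9 members under limma on log2(TPM + 1), voom on recovered reads, and limma after removal of the GC and length trend. The intervals of EZH1 lie below 0 and those of CBX8 above 0 in all 3 fits, and those of EZH2, SUZ12, BMI1, RNF2, RING1 and CBX2 include 0 in each. The interval of EED includes 0 under limma on log2(TPM + 1) and voom, and lies just below 0 after removal of the trend (-0.29 to -0.0048).

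The members differed in base composition. The canonical transcripts of RNF2 (36.0% GC), SUZ12 (38.2%) and BMI1 (40.1%) were low in GC, those of EZH2 and EED (both 44.9%) and EZH1 (50.6%) intermediate, and those of CBX8 (57.4%), CBX2 (59.5%) and RING1 (61.6%) high. NEAT1siRNA replicate 2 had the lowest rho between deviations from the group mean and GC content. It was above the CsiRNA mean by 0.31 for SUZ12 and by 0.19 for RNF2 on the log2(TPM + 1) scale. After the trend was removed, the same library stood at 0.13 for SUZ12 and at -0.04 for RNF2. The trend moves with the values of both genes, and its part in them was not tested otherwise. For CBX8 the estimate was larger without the trend (0.30 against 0.23), and for EZH1 it was smaller (-0.17 against -0.26).

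**Figure D3:**
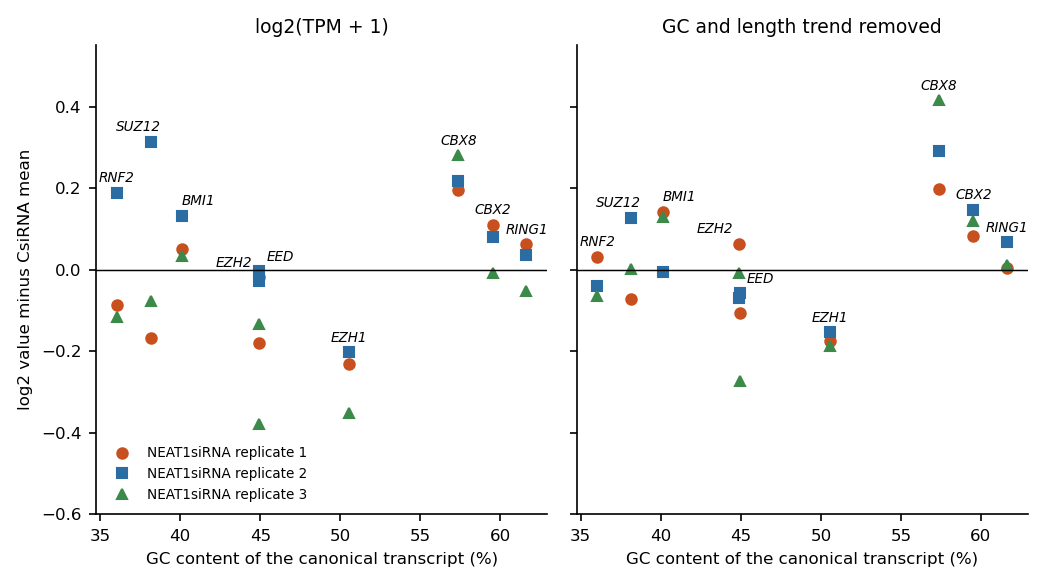
Log2 value of each member in the 3 NEAT1siRNA libraries minus the CsiRNA mean (y axis) against the GC content of its canonical transcript in percent (x axis), before (left) and after (right) removal of the GC and length trend; EZH2 and EED share a GC content of 44.9%. Before removal NEAT1siRNA replicate 2 (squares) stands at 0.31 for SUZ12 and 0.19 for RNF2, and after it at 0.13 and -0.04.

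Promoters of the members, as given by RefSeq for GRCh38.p14 from 250 bases before to 50 after the transcript start, were read for EZH1, EZH2, EED, SUZ12, BMI1, RNF2 and RING1. CBX2 and CBX8 were not matched. They were searched on both strands for the E-box CACGTG, held by 7.26% of all 35116 promoters, and for the E2F words TTTCCCGC or TTTGGCGC, which do not overlap the E-box and were held by 2.27%. An E2F word was found in EZH2 (position 2 counted from the start at 1) and in SUZ12 (position -189), and an E-box in BMI1 (position -70). RefSeq gives a second promoter for EZH2 (chr7:148883436-148883735) and for BMI1 (chr10:22321706-22322005), and neither held a word. No promoter of EZH1, EED, RNF2 or RING1 held either word. The promoters of EZH2 and SUZ12 that hold the word are shown because E2F factors drive genes of proliferation and that of EZH1 because it lacks the word and its gene had the lowest p of the members. The windows are chr7:148884242-148884541 (minus strand) for EZH2, chr17:31936757-31937056 (plus strand) for SUZ12 and chr17:42744991-42745290 (minus strand) for EZH1, with E2F words in capitals.
EZH2: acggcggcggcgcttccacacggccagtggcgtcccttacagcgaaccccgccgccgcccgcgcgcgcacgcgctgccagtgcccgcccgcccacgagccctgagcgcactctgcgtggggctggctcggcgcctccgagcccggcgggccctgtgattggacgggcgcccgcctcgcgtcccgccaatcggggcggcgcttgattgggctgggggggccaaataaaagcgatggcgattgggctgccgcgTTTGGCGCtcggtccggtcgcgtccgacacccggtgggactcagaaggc
SUZ12: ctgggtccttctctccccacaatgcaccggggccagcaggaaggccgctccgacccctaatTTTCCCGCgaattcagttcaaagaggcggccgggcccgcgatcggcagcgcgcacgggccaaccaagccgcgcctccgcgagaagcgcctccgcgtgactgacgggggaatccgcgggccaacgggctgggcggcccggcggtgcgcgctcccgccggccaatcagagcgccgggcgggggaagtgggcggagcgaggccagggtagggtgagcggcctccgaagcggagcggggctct
EZH1: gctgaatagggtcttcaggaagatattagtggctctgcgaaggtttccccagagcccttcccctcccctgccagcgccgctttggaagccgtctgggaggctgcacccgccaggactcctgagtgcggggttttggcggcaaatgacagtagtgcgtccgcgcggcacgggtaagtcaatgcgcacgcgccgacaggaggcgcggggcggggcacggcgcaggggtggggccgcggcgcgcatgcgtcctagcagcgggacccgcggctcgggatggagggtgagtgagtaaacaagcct
These windows are rich in GC (74.7%, 73.0% and 67.0%, beside a median of 58.7% over all promoters) and in CpG, with observed over expected CpG between 0.91 and 1.10 beside a median of 0.579. A match of letters is a description and not a bound site.

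Genes of E2F and proliferation, which share regulators with EZH2, were read next. Of the 27 tested, 1 rose and 0 fell (3.70%, beside 14.0% of all genes tested). Voom and quantile normalization each called 1 of the 27, and removal of the GC and length trend 5, beside 23.0%, 20.4% and 33.3% of all genes. The median log2 fold change was -0.02 and turned to 0.03 with centring and 0.02 with quantile normalization. The gene that rose was E2F2, an activator E2F, from 2.55 ± 0.392 to 4.08 ± 0.296 TPM (0.52 on the log2 scale, adjusted p = 0.00091 from limma). E2F1, named after its values were seen, was at 15.6 ± 0.921 and 14.9 ± 1.06 TPM (adjusted p = 0.741).

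Further subunits of PRC2 were read as a list of accessory subunits, which also holds the core subunits RBBP4 and RBBP7. Of the 9 tested, 1 was past the threshold (11.1%, beside 14.0% of all genes tested). JARID2, a DNA-binding cofactor of PRC2, rose from 6.81 ± 0.456 to 9.14 ± 0.743 TPM (0.38 on the log2 scale, adjusted p = 0.0088 from limma). The median of the list was 0.09. Voom called 4 of these 9 and quantile normalization 2, beside 23.0% and 20.4% of all genes. After removal of the GC and length trend 4 of the 9 were called, beside 33.3%. RBBP4 and RBBP7, named after their values were seen, were not past the threshold by limma (adjusted p = 0.324 and 0.539). Both were called as higher after removal of that trend (adjusted p = 0.0073 and 0.0245), and RBBP4 also with voom (adjusted p = 0.0266). Of 21 partner subunits of PRC1, 0 rose and 3 fell by limma, 5 were counted at an unadjusted p under 0.05 in either direction, and voom called 6. The share past the threshold, 14.3%, was near the 14.0% of all genes tested, and the other counts stand beside 27.4% and 23.0% of all genes. PCGF3, a PCGF protein of variant PRC1, fell from 9.79 ± 0.488 to 7.203 ± 0.978 TPM (-0.40, adjusted p = 0.0073). SCML2, which binds PRC1, fell from 4.53 ± 0.232 to 3.20 ± 0.414 TPM (-0.40, adjusted p = 0.0073), and MGA, a subunit of the PCGF6 complex, fell from 10.1 ± 1.34 to 7.53 ± 0.433 TPM (-0.37, adjusted p = 0.0129). Calls on PCGF3 and MGA were lost without NEAT1siRNA replicate 3, and that on MGA also without CsiRNA replicate 1. The median of the list was -0.03 and turned to 0.02 with libraries centred on their median.

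Complexes that work beside or against Polycomb held no gene past the threshold by limma. They were the PR-DUB and PhoRC genes (11 tested, median log2 fold change -0.08, or -0.02 with centring) and the H3K27 demethylases with the COMPASS genes (18 tested, median -0.13, or -0.07 with centring). Of the latter list 16 of 18 estimates were negative, and 11 of 18 after removal of the GC and length trend. Over all genes tested the median by limma was -0.04, and 963 genes past the threshold were lower against 535 higher. At an unadjusted p under 0.05, 2 and 3 of their genes were counted, and voom called 1 in each, beside 27.4% and 23.0% of all genes. With quantile normalization 1 gene of each list was past the threshold, and after removal of the GC and length trend 3 and 2 were, beside 20.4% and 33.3% of all genes in these settings.

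Genes known to be repressed by Polycomb moved in both directions. Histone marks were not read here, so whether Polycomb represses them in BT-549 cells was not tested. Of the 26 in the list, 14 passed the filter on TPM, and of these 4 rose and 3 fell, with a median log2 fold change of 0.06. The share past the threshold was 50%, beside 14.0% of all genes tested. Voom called 9 of the 14, quantile normalization 8 and removal of the GC and length trend 9, beside 23.0%, 20.4% and 33.3% of all genes. The list was chosen with earlier results of these data known, so its share is only a description. CDKN2B, which encodes the cell cycle inhibitor p15, rose from 16.7 ± 0.976 to 26.4 ± 3.34 TPM (0.62 on the log2 scale, adjusted p = 9.6e-05 from limma). The Wnt antagonist genes DKK1 (16.95 ± 2.13 to 9.89 ± 1.17 TPM, log2 fold change -0.72) and SFRP1 (24.7 ± 0.696 to 15.3 ± 1.17 TPM, -0.66 on that scale) fell, and so did SLIT2, a secreted guidance factor (12.5 ± 1.46 to 7.60 ± 0.703 TPM, -0.65). The other genes that rose, named after their values were seen, were FOXC1 (0.50), FBXO32 (0.40) and GATA6 (0.37). CDKN2A, next to CDKN2B and named likewise, was at 183 ± 6.31 TPM with CsiRNA and 209.6 ± 9.003 TPM with NEAT1siRNA, without overlap (0.19, adjusted p = 0.124), and was past the threshold with voom (adjusted p = 0.0119) and after removal of the GC and length trend (adjusted p = 0.0040). Of the 39 HOX genes, which specify body position, 14 passed the filter and 2 of these (14.3%, near the 14.0% of all genes tested) rose, HOXC10 (19.8 ± 1.30 to 27.7 ± 0.790 TPM, 0.47, adjusted p = 0.00097) and HOXC6 (8.89 ± 0.884 to 12.1 ± 1.08 TPM, 0.41, adjusted p = 0.0064). Voom and quantile normalization each called 4 of the 14, beside 23.0% and 20.4% of all genes. After removal of the GC and length trend 8 of the 14 were called, beside 33.3%. HOXC6 overlaps other HOXC genes, and how their reads were shared is not stated. The call on HOXC6 was lost without CsiRNA replicate 2. With no filter on TPM, where 505 genes in all were past the threshold, the calls on JARID2, PCGF3, SCML2, MGA, FBXO32, GATA6, HOXC6 and E2F2 were lost.

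**Figure D4:**
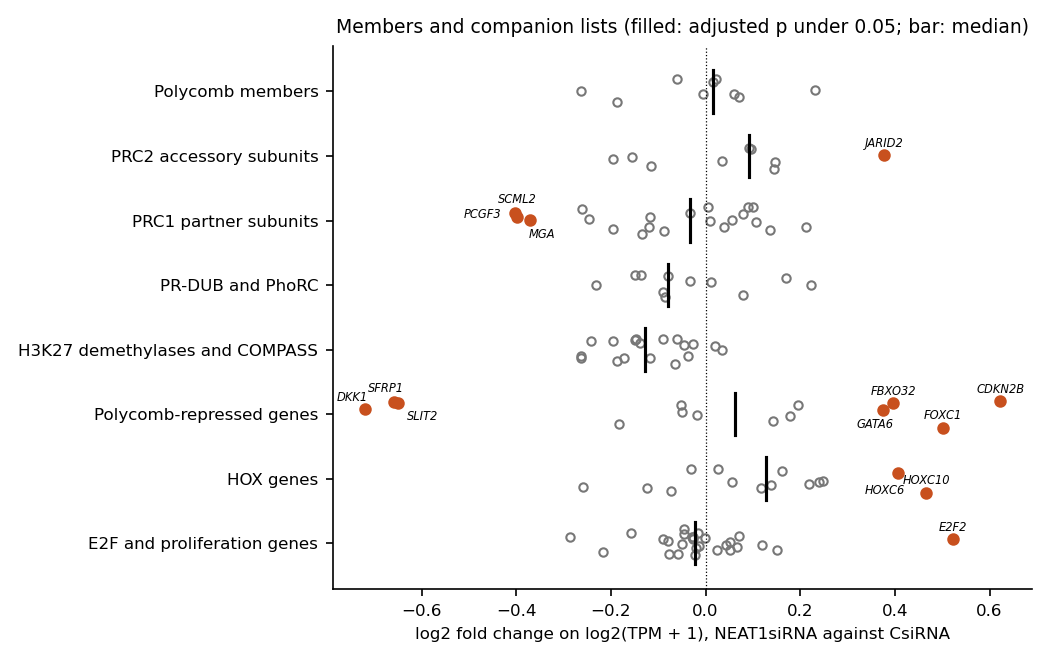
Log2 fold change of NEAT1siRNA against CsiRNA on log2(TPM + 1) (x axis) for the 9 members and for each tested gene of the 7 companion lists (rows), where filled points passed an adjusted p of 0.05 and black bars mark medians. No member is filled, and among the Polycomb-repressed genes 4 filled points lie above 0 and 3 below.

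Over the 6 libraries, the genes whose log2(TPM + 1) was most like that of EZH1 were HAUS5 (Pearson r 0.997), SLC25A20 (0.997) and CLK2 (0.994). HAUS5 encodes a subunit of the augmin complex of the spindle, SLC25A20 a mitochondrial carnitine carrier and CLK2 a kinase of splicing factors. CLK2 fell by 0.50 on the log2 scale (adjusted p = 0.0018), and HAUS5 was at -0.21 (adjusted p = 0.143). With 6 points that share libraries and a group difference, 158 genes had an r over 0.95.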

How the data were processed

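RNA-seq libraries of BT-549 cells were compared between CsiRNA and NEAT1siRNA, 3 each. The methods of the study name TruSeq Stranded mRNA for library preparation. How that preparation relates to the large share of short noncoding RNAs in the TPM was not tested. Per the labels and the methods of the study, the authors aligned reads to GRCh38 with STAR and normalized counts with DESeq2. The deposited expression table gives TPM per gene and library. The deposited comparison table gives the mean normalized count of each gene (a signal over all 6 libraries), which was used, and the authors' fold changes and p-values, which were not used.

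TPM were tested as log2(TPM + 1) with limma 3.58.1 (lmFit, eBayes with trend) in R 4.3.3, for genes averaging at least 1 TPM, in place of a count test because the table holds TPM. Whole reads were recovered by joining TPM with the mean normalized counts. Values lay within 0.05 reads of an integer for 99.8% where the mean count was under 5, for 98.5% from 5 to 50, for 76.9% from 50 to 500 and for 19.3% above, so reads of EZH2, SUZ12 and RNF2 are approximate. Voom was run on these reads. Splines with 4 degrees of freedom on GC content and length of the GENCODE v44 canonical transcript, matched by symbol for 97.2% of genes tested, were removed in an alternative. Ratios were compared by exact two-sided permutation tests. P-values measure the spread between triplicate cultures. The limma fit on log2(TPM + 1) was tested on simulated counts with log2 folds of size 1 and no trend with GC content. Folds as small as those of the members, and the other steps, were not covered by that test.

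The members, the companion lists and the motifs were chosen with earlier results of these data known. Genes named are the members, NEAT1, the genes past the threshold in each companion list (where over 4, the 4 with the largest absolute log2 fold change), PCGF2 and the 3 genes most like the member with the largest moderated t. Others are said to be named after their values were seen. HCFC1 stands in 2 of the lists. The result of 1 gene of the lists is not reported here. Python 3.11.15 with numpy 2.4.6, pandas 2.3.3 and scipy 1.17.1 was used for the rest.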

Additional observations from a re-analysis of the deposited data

How the results depend on the processing

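The count of members called stayed at 0 with a pseudocount of 0.1, without a TPM filter, with a minimum of 5 TPM on average (which keeps EZH2, EED, SUZ12 and RNF2), with libraries centred on their median, with eBayes untrended, with the replicate block and with an adjusted p under 0.01. It was 1 with quantile normalization (EZH1, -0.23), voom (EZH1, -0.34), the GC and length trend removed (CBX8, 0.30) and that removal with the replicate block (CBX8, 0.30, adjusted p = 0.0077), and between 0 and 1 when single libraries were left out, where EED ranged from -0.28 to -0.092. Deviations from the group means correlated at -0.03, 0.25 and -0.11 between same-numbered libraries, and from -0.40 to 0.40 between others. Deviations within a group offset each other, so these values cannot decide whether the replicate numbers pair the libraries. The replicate block gave 1640 genes changed in place of 1498. Over all genes, 535 higher and 963 lower became 242 and 263 (505 in all) with no filter, 1082 higher of 2191 with quantile normalization, 1158 higher of 2112 with centring, 1225 higher of 2467 with voom, 1704 and 1764 (3468) with the trend removed, 1683 and 1707 (3390) with the block as well, and 276 and 443 (719) at an adjusted p under 0.01. Leaving out single libraries gave 759 (without CsiRNA replicate 1) to 2083 (without NEAT1siRNA replicate 2) genes changed, 376 to 540 higher and 383 to 1590 lower, and 838 without NEAT1siRNA replicate 3. The sign of RNF2 turned to 0.033 with quantile normalization, 0.052 with centring and 0.050 with voom. Without single libraries RNF2 ranged from -0.10 to 0.052, SUZ12 from -0.12 to 0.12, RING1 from -0.021 to 0.049, the RING1 to RNF2 ratio from -0.053 to 0.13 and the BMI1 to PCGF2 ratio from -0.0090 to 0.18. The EZH1 to EZH2 ratio was -0.25 with the trend removed and ranged from -0.36 to -0.29 without single libraries. The cause of these differences was not tested. CBX8 had the fewest recovered reads of the members, 54 to 83 per library.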
